A study of Mus musculus with 2 samples.

Results

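Gene desert peaks are the DNase I hypersensitive sites that lie far from any protein-coding gene. They were taken from the deposited peak lists of 2 libraries by position alone. A peak on chromosomes 1 to 19 was a member when its centre lay outside every protein-coding gene body and more than 200 kb from every start site (TSS) of a protein-coding gene in GENCODE release M21 on mouse build mm10. The rule found 16652 of 194486 autosomal peaks in replicate 1 and 9935 of 150286 in replicate 2. The full lists held 199653 and 154324 peaks.

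DNase-seq measures where DNA in nuclei is cut by DNase I, which marks accessible chromatin. The tissue was neural tube of healthy B6NCrl mouse embryos of both sexes, pooled, at embryonic day 11.5. The 2 libraries are biological replicates of this single group, with no treatment or mutant allele, and they carry the same donor label. Replicate 1 was run on NextSeq 500 and HiSeq 2500 instruments, and replicate 2 on those and on a HiSeq 2000. The files hold no read counts, so the depth behind a peak is unknown. A single group of 2 libraries allows no test between groups, so differences are set against the spread of the 2 libraries and no p-value is given.

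Gene deserts are long stretches without coding genes. They are poor in G and C and rich in repeats, and some of them hold distant enhancers that act on a developmental regulator at their edge. In the developing spinal cord such regulators are often transcription factors that give progenitors their position along the body axis or turn them into neurons. Other deserts flank genes for cell adhesion and synapses, which neurons use once they grow and connect.

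The tissue label was checked at promoters. All 16 listed neural tube genes had a peak within 500 bp of a TSS in both libraries. None of 4 myeloid genes and none of 4 liver genes did so in both, against 1 of 6 erythroid, 2 of 5 endothelial and 2 of 4 striated muscle genes. Promoters open in both libraries were common, at 1098 of 1362 flanks of the deserts ranked below. The total takes 2 flanks per desert. In 6 deserts with a coding gene on 1 side only, the missing flank counts as not open. All 16 being open thus does not by itself identify the tissue. The part of other cell types in the desert peaks was not tested. In bulk tissue, fewer cells with an open site and a weaker opening per cell cannot be told apart.

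The sequences of 5 of the 6 desert peaks with the best mean score rank over both libraries are printed as examples of high-scoring desert sites. Each is the 150 bp peak of replicate 1 on the plus strand of mm10, read from the GRCm38 reference genome. Capitals mark matches to the short motifs whose shares are given further on.
Peak 1: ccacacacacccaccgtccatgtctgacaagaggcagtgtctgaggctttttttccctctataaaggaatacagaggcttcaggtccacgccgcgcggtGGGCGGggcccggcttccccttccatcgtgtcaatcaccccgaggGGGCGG
Peak 2: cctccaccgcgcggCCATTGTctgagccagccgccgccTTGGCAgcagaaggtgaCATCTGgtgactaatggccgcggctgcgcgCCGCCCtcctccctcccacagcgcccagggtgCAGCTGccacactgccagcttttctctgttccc
Peak 3: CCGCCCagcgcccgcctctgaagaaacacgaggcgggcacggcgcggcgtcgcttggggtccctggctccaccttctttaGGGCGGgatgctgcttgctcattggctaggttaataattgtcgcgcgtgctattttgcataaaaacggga
Peak 4: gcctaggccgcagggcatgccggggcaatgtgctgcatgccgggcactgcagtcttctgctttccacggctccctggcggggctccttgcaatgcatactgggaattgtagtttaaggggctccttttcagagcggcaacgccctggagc
Peak 5: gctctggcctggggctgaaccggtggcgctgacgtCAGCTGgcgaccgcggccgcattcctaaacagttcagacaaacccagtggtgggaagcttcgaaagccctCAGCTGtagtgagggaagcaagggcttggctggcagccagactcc
Peak 1 (chr1:7398076-7398225, between Pcmtd1 and Sntg1) had its centre 0.055 kb from the RefSeq start of the long noncoding RNA Gm26901. Peak 2 (chr14:24779216-24779365, between Rps24 and Zmiz1) lay 288 kb from the nearest coding TSS and held a SOX match, both E-box forms, an NFI half-site and a GC box. Peak 3 (chr6:51178616-51178765, between Npvf and Nfe2l3) held 2 GC boxes. Peak 4 (chr12:29291036-29291185, between Eipr1 and Myt1l) held none of the 16 motifs. Peak 5 (chr13:107831316-107831465, between Kif2a and Ndufaf2) held 2 CAGCTG E-boxes. All 5 had a GC content of 60.0% to 68.0%, against a median of 38.7% over 150 bp tiles of desert sequence. High GC was not particular to deserts. Outside them and over 1 kb from a coding TSS, peaks in the top 10% of scores had medians of 58.7% and 62.7% in replicates 1 and 2. RefSeq places the nearest start of the coding gene Zswim6 58.7 kb from peak 5, so under that annotation peak 5 would not count as a desert peak.

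The best-ranked shared peaks of the deserts beside Sox9 and between Irx3 and Irx5 are printed as well. Both deserts were among the 10 densest in shared peaks, and the 2 sequences were chosen after their values were seen.
Sox9 desert peak: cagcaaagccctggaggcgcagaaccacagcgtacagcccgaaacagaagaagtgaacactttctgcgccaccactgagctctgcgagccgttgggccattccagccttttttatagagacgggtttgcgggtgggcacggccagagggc
Irx3 to Irx5 desert peak: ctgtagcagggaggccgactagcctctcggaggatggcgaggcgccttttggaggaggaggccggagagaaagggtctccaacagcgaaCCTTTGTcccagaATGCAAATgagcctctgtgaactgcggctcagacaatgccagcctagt
The first (chr11:113201756-113201905) had its centre 0.007 kb from the start of the long noncoding RNA 2610035D17Rik and held no listed motif. The second (chr8:92134196-92134345) lay 223 kb from the Irx5 TSS and held a SOX match and a POU octamer, ATGCAAAT, separated by a few bases. It stood at the percentile of 96.5 in replicate 1 and 91.3 in replicate 2.

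Deserts were thinly but not evenly filled with open sites. They made up 509 Mb, or 21.2%, of the 2396 Mb of known autosomal sequence, and held 8.56% (replicate 1) and 6.61% (replicate 2) of the autosomal peaks (mean 7.59% ± 1.38, SD, n = 2). The density was 3.27 and 1.95 peaks per 100 kb in deserts, against 9.42 and 7.44 in the rest of the autosomes. The density in deserts was thus 0.347 times that of the rest in replicate 1 and 0.262 times in replicate 2. Both libraries lay on the same side, and the desert densities (2.61 ± 0.933) did not overlap those of the rest (8.43 ± 1.41, SD, n = 2). Replicate 1, the longer list, held the larger share of desert peaks. The mean ratio of 0.305 became 0.167 when each list was limited to its better-scoring 50%, and 0.180 with a distance of 500 kb.

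Density went on falling inside the deserts. From 200 to 300 kb from a coding TSS it was 4.88 and 3.20 peaks per 100 kb in replicates 1 and 2. From 300 to 500 kb it was 3.85 and 2.37, and from 500 to 1000 kb 2.32 and 1.19. Beyond 1000 kb it was 1.13 and 0.418, where 804 and 296 peaks remained. The order of these classes was the same in both libraries. The median desert peak lay 349 kb (replicate 1) and 331 kb (replicate 2) from the nearest coding TSS, and the farthest lay 2680 kb away in both.

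Long coding genes gave a similar picture at the same distances. Inside gene bodies, 200 to 300 kb from every TSS, the density was 4.86 and 3.04 per 100 kb, close to the 4.88 and 3.20 outside them. At 300 to 500 kb it was 4.37 and 2.52, against 3.85 and 2.37. At 500 to 1000 kb it was 2.92 and 1.47 inside, against 2.32 and 1.19 outside, over 7.78 Mb only. At equal distance from a TSS the densities inside and outside gene bodies were thus close up to 500 kb.

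**Figure D1:**
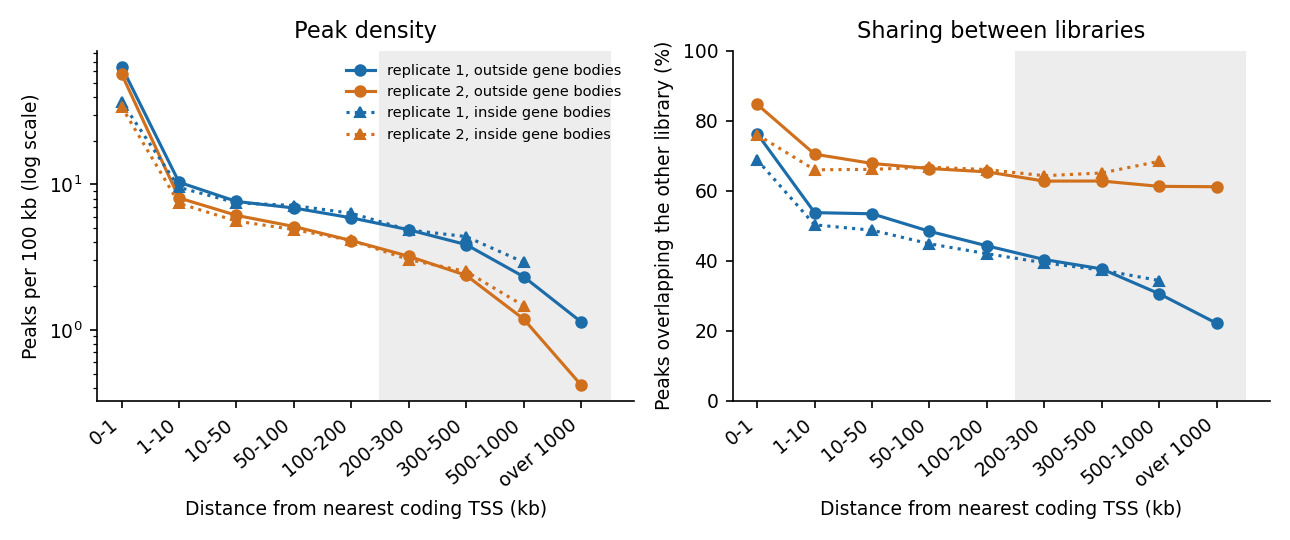
Left, peaks per 100 kb of known sequence (log scale) by distance from the nearest coding TSS in kb, for each library, outside (circles, solid) and inside (triangles, dotted) coding gene bodies. Right, the percentage of those peaks that overlapped a peak of the other library; the grey band covers the distances beyond 200 kb, where density outside gene bodies fell from 4.88 to 1.13 in replicate 1 and from 3.20 to 0.418 in replicate 2.

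Desert peaks scored low within their libraries. Column 7 of the peak lists, a whole-number score of the authors with 149 and 146 distinct values in the 2 libraries, was turned into a percentile of rank within each list. The median desert peak stood at the percentile of 30.9 in replicate 1 and 31.0 in replicate 2. Other distal peaks, those over 1 kb from a coding TSS and not in a desert, had medians of 45.3 and 44.6, and peaks within 1 kb of a TSS had 81.4 and 80.4. These 3 classes kept the same order in both libraries, with gaps far wider than the difference between the libraries.

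Few desert peaks reached the top of the list. The 10% of highest scores in each library took in 231 desert peaks (1.39%) of replicate 1 and 77 (0.775%) of replicate 2, of 19471 and 15046 autosomal peaks with such scores. For other distal peaks the share was 3.7% and 2.55%. At the other end, 20.5% and 19.2% of desert peaks had scores in the lowest 10%. Scores fell with distance too, from a median percentile of 34.9 and 33.9 at 200 to 300 kb to 24.4 and 21.9 beyond 1000 kb. Around the distance rule itself the values ran on without a step. Peaks 200 to 210 kb from a TSS (725 and 507) had medians of 34.9 and 36.8, and those 190 to 200 kb away and outside gene bodies (878 and 575) had 32.9 and 33.9.

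Sharing between the libraries was lower for desert peaks than for all peaks. A peak was shared when it overlapped a peak of the other library by at least 1 bp. In replicate 1, 6065 desert peaks (36.4%) were shared, against 52.7% of all autosomal peaks of that library. In replicate 2, 6204 (62.4%) were shared, against 69.4%. Other distal peaks were shared in 49.4% and 66.9%. The 2 libraries differed from each other more than deserts differed from other distal peaks, and replicate 1 has the longer list.

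Peaks of lower score were shared less often in both libraries and both classes. When other distal peaks were weighted to the score deciles of the desert peaks, their shared percentage was 37.1% in replicate 1 and 56.3% in replicate 2. Against that, desert peaks were 0.666 percentage points lower in replicate 1 (36.4% against 37.1%) and 6.12 points higher in replicate 2. The mean difference of 2.73 points was smaller than its spread (SD 4.80, n = 2), so no difference in sharing at equal score was established. With only the higher-scoring 50% of each list it was -2.69 points. In replicate 2 the desert value was higher in each of the 7 lowest deciles, for example 76.0% (95% interval 73.6 to 78.3, exact binomial, counting error only) against 65.7% (64.9 to 66.5) in the fourth. Replicate 1 showed 27.6% (25.6 to 29.7) against 29.5% (28.8 to 30.2) in that decile.

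High-scoring desert peaks were nearly always shared. In the top decile 225 of 231 desert peaks of replicate 1 (97.4%, interval 94.4 to 99) and 77 of 77 of replicate 2 (100%, 95.3 to 100) overlapped a peak of the other library. In the lowest decile the shares were 7.37% and 14.5%. All 6 unshared top-decile peaks of replicate 1 still overlapped a hotspot, a broader region of enriched cutting, called in replicate 2. Over all desert peaks, 37.8% and 70.4% overlapped the other library's hotspots, against 56.7% and 79.5% of all autosomal peaks. Desert hotspots were also narrower, with median widths of 231 and 191 bp against 282 and 242 bp elsewhere.

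Beyond 200 kb the libraries had different values of sharing by distance. In replicate 1 the shared percentage dropped from 40.4% at 200 to 300 kb to 22.1% beyond 1000 kb. In replicate 2 it was 62.8% and 61.1%. The difference between the libraries was not tested.

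**Figure D2:**
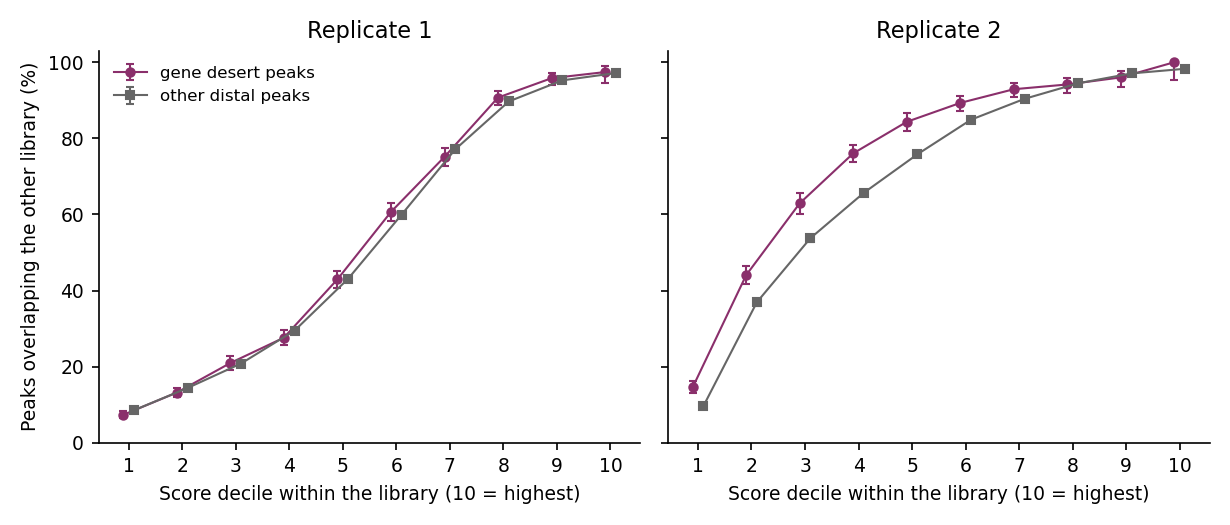
The percentage of peaks that overlapped a peak of the other library (vertical axis) by score decile within the library (horizontal axis, 10 the highest), for gene desert peaks (circles) and other distal peaks (squares); bars are exact 95% binomial intervals. In replicate 1 the curves lie on each other, and in replicate 2 the desert curve is higher in the 7 lowest deciles, by 76.0% against 65.7% in the fourth.

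Shared peaks were merged into 99138 autosomal regions, of which 5855 (5.91%) lay in deserts. This gave 1.15 shared regions per 100 kb in deserts and 4.94 in the rest. The rule cut the genome into 862 separate deserts, and the 681 with at least 100 kb of known sequence were ranked by shared regions per 100 kb. Their median was 0.920 (quartiles 0.290 and 2.49), the highest was 12.4, and 94 deserts (13.8%) had no shared region. The median was 0.385 for deserts beyond 500 kb from a TSS, 0.478 when noncoding gene bodies were also left out, and 0.225 with the higher-scoring 50% of each list. The 68 densest deserts held 24.5% of the shared regions of the ranked deserts in 4.07% of their sequence. The median gap between neighbouring regions of a desert was 18.4 kb, and 30.7% of the gaps were under 5 kb. Density differs between deserts, and whether regions gather within a desert was not tested.

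The densest desert lay between Tle3, a corepressor of the Groucho family, and Rplp1, a ribosomal protein gene (chr9:61609938-61714541). It held 13 shared regions in 105 kb, or 12.4 per 100 kb, from 21 peaks in each library. The desert on the other side of Tle3, toward Uaca, was also dense, with 12 shared regions (11.3 per 100 kb) from 18 and 37 peaks in replicates 1 and 2. Between them ranked the desert from Gm26897 to the lens crystallin gene Cryba4, with 14 shared regions (11.9 per 100 kb) from 21 and 32 peaks. Both sides of Tle3 were thus among the 3 densest, and replicate 2 had more peaks than replicate 1 in 2 of these 3 deserts.

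Regulator genes stood at the edge of several dense deserts. Sox9, an HMG-box factor of neural progenitors, glia and neural crest, flanked a desert toward the zinc transporter gene Slc39a11 with 29 shared regions in 263 kb (11 per 100 kb). It had 48 and 62 peaks in replicates 1 and 2. Between Irx3 and Irx5, homeodomain factors that pattern the neural tube, lay 17 shared regions in 156 kb (10.9 per 100 kb), from 25 and 49 peaks. Sox11, a factor of newly formed neurons, and Cmpk2 flanked 45 shared regions in 469 kb (9.60 per 100 kb), from 77 and 62 peaks. Sox4, a close relative of Sox11, and Gm11361 flanked 27 in 296 kb (9.12 per 100 kb), from 50 and 37 peaks. These 4 were the deserts with a listed regulator among the 10 densest. Among the 20 densest there were 8, among the 50 densest 17, and among all 681 there were 102 (15%). The regulators were listed with earlier results of these data known. The deserts on the other side of Sox9 and Sox11 were less dense. Toward Kcnj2 the Sox9 desert had 3.34 shared regions per 100 kb (rank 120), and toward Dcdc2c the Sox11 desert had 2.45 (rank 176). The median over all deserts was 0.920.

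The other dense deserts had no listed regulator at their edge. Between Npvf, a neuropeptide gene, and Nfe2l3, a bZIP factor, 36 shared regions lay in 378 kb (9.52 per 100 kb). Here replicate 1 had 100 peaks and replicate 2 had 49. Between Rps24 and Zmiz1, a coactivator gene, there were 50 in 544 kb of known sequence (9.20 per 100 kb), from 99 and 71 peaks. Between Thap1 and Zfp703, a zinc finger repressor gene, there were 38 in 419 kb (9.08 per 100 kb), from 61 and 65 peaks.

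The fullest 20 kb of each of the 10 densest deserts held 4 to 12 shared regions. Between Npvf and Nfe2l3 it held 12 of the 36, from 314 to 330 kb after the left edge. In the desert beside Sox11 it held 8 of 45, in that from Thap1 to Zfp703 6 of 38, and in that from Tle3 to Rplp1 4 of 13.

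**Figure D3:**
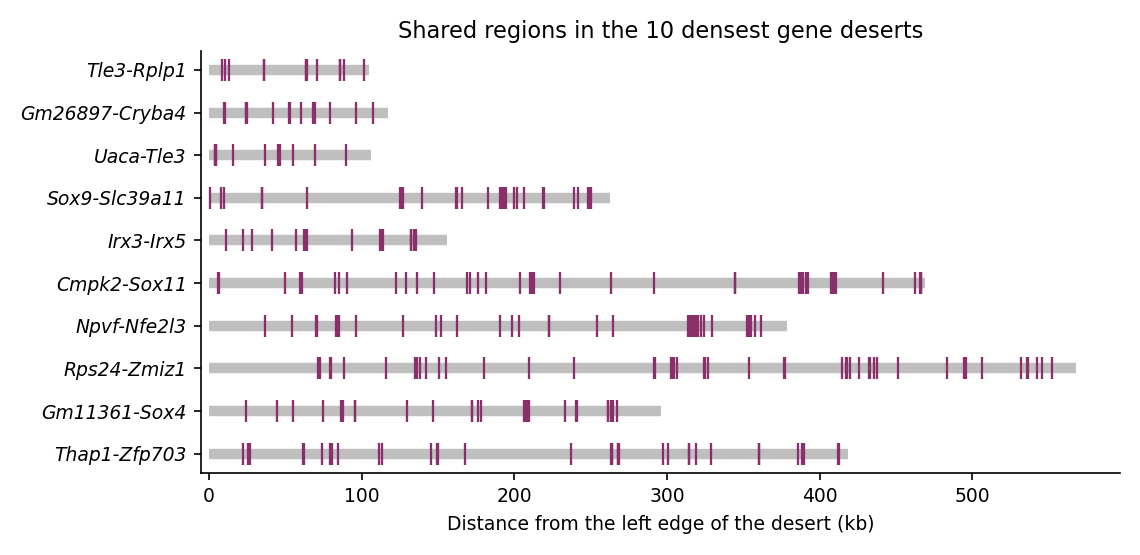
Shared regions (ticks) along the 10 deserts with the most shared regions per 100 kb; the grey bar is the desert and the horizontal axis the distance from its left edge in kb. Between Npvf and Nfe2l3, 12 of the 36 ticks stand between 314 and 330 kb.

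The 10 deserts named as having the fewest shared regions all had 0 and were the longest of the 94 without one, at 1266 to 2375 kb. The longest ran from Cox7c, a respiratory chain gene, to Edil3, an extracellular matrix gene (chr13:86246905-88621471). It had 10 peaks in replicate 1 and 0 in replicate 2. Lingo2 to 1700009N14Rik (2099 kb) likewise had 10 and 0. Tmprss15 to the adhesion gene Ncam2 (1710 kb) had 31 peaks in replicate 1 and 1 in replicate 2, and none of them met. In all 10, replicate 1 had more peaks than replicate 2.

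A further 6 were 4931408C20Rik to Gm597, Tbl1xr1 to Naaladl2, Ripk2 to Mmp16, Gm21833 to A730009L09Rik, Atxn7l3b to Trhde, and Pot1a to the glutamate receptor gene Grm8. They had 6 to 16 peaks in replicate 1 and 0 to 8 in replicate 2. Genes at the edges of these deserts often had open promoters. Of the 20 flanks of these 10 deserts, 14 had an open promoter in both libraries, against 16 of 20 for the 10 densest. Over all ranked deserts it was 1098 of 1362, with 6 missing flanks counted as not open. Sequence differed between the 2 sets with no overlap. The 10 densest had a GC content of 41.8% to 49.0% and 16.5% to 31.8% repeat-masked sequence. The 10 named deserts without a shared region had 36.5% to 38.4% and 35.9% to 52.5%. They were taken as the longest of 94, and all deserts over 1000 kb had a median GC content of 37.6%. The 94 had a median GC content of 38.3% and a median of 46.2% masked, so the lack of overlap holds for the named sets only. The part of sequence in the counts was not tested.

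The 5 longest deserts were sparse but not empty. Pcdh20 to Pcdh9, both protocadherin genes, spanned 4342 kb with 21 shared regions (0.484 per 100 kb), from 84 and 26 peaks. Tenm3, a teneurin gene, to Aga had 19 in 4268 kb (0.445). Celf4 to Pik3c3 had 25 in 4119 kb (0.607), Cntnap5b to the cadherin gene Cdh20 had 5 in 4083 kb (0.122), and Olfm4 to Pcdh17 had 12 in 4043 kb (0.297). Each lay below the median of 0.920, and replicate 1 had more peaks in each.

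The longest run of desert sequence without a peak in either library was 1800 kb between Adam6a and Zfp386 on chromosome 12. It held 133 annotated immunoglobulin segments, which the annotation does not class as protein-coding, so this stretch is a desert only by the rule. The next was 1451 kb between Pabpc4l and Pcdh18, with 7 annotated noncoding genes and pseudogenes, and then 1416 kb between Fstl5 and Rapgef2.

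Deserts were grouped by the gene lists to which a flanking gene belonged. The lists were chosen with earlier results of these data known, so differences between them are a description and not independent support. With a neural regulator at an edge, 73 deserts had a median of 2.97 shared regions per 100 kb (quartiles 1.3 and 4.05), against 0.920 over all 681. Of the 73, 42 (57.5%) were among the 170 densest and 1 had no shared region. Other regulators flanked 31 deserts with a median of 1.59. Signalling genes flanked 28 with a median of 0.791, and genes of chemosensory, defence and other large families flanked 12 with 1.05. Adhesion and synapse genes flanked 119 deserts with a median of 0.445, of which 9 (7.56%) were among the 170 densest. Of the 119, 16 (13.4%) had no shared region, close to the 13.8% of all 681. Thus the lists ranged from above to below the median of all deserts, with much overlap between single deserts.

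Deserts beside neural regulators lay above, and those beside adhesion and synapse genes below, the median of all deserts in each library on its own. The former had medians of 6.92 peaks per 100 kb in replicate 1 and 4.55 in replicate 2. All deserts had 3.31 and 1.81, and the latter had 2.08 and 0.920.

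**Figure D4:**
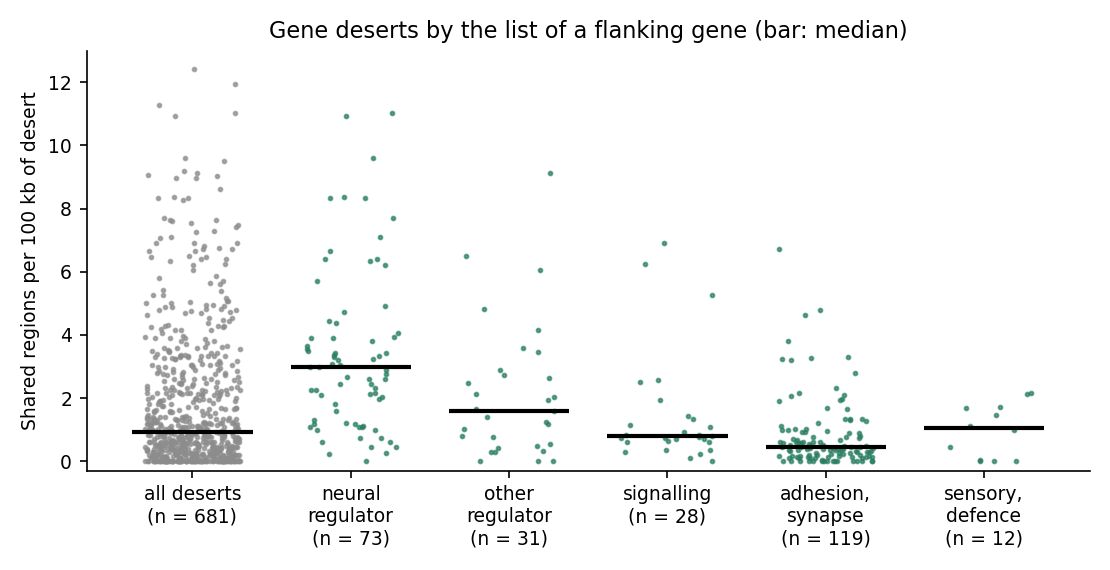
Shared regions per 100 kb for each ranked desert (points), grouped by the list of a flanking gene; black bars are medians, and a desert can stand in more than 1 group. The 73 deserts beside neural regulators have a median of 2.97 and the 119 beside adhesion and synapse genes 0.445, against 0.920 over all 681. The lists were chosen with earlier results of these data known.

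Length and base composition differed between these groups. Deserts beside adhesion and synapse genes had a median known length of 993 kb, and shorter deserts were denser, from 2.04 shared regions per 100 kb at 100 to 300 kb to 0.438 over 1000 kb. Within the 4 length classes, adhesion and synapse deserts still had the lower median each time (0.668 against 2.07 at 100 to 300 kb, and 0.344 against 0.545 over 1000 kb). Deserts beside neural regulators had the higher median in all 4 classes (3.22 against 1.59 at 100 to 300 kb, and 1.64 against 0.386 over 1000 kb).

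Repeat content went with the count more closely. Across the 681 deserts, shared regions per 100 kb had a Spearman rho of -0.73 with the repeat-masked percentage, 0.67 with GC content and -0.26 with length, as a description of deserts that share libraries and genome regions. In the tertile of deserts with the least masked sequence, the 65 beside a regulator of either list had a median of 3.34 and the other 162 had 3.14. In the middle tertile the medians were 1.20 (22 deserts) and 0.697, and in the most masked tertile 0.739 (15 deserts) and 0.202. In the tertile with the highest GC content they were 3.43 and 3.06. The difference between deserts with and without a regulator was therefore small among the least masked and GC-rich deserts, where most regulator deserts lay, and wider elsewhere. The median over all 102 deserts beside a regulator, 2.55, was 0.892 with the higher-scoring 50% of each list, while all deserts then had 0.225.

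The fullest deserts of each list are named here by their flanking gene. Among neural regulators, Isl1, a LIM-homeodomain factor of motor neurons, followed the 3 named above, with 18 shared regions (8.36 per 100 kb). The desert on the other side of Isl1, toward Itga1, had 9 (1.12 per 100 kb). Other regulators included Mef2c with 11 (6.49), the homeobox gene Msx2 with 11 (6.05) and the T-box gene Tbx3 with 25 (4.81). Among signalling genes were Spry2, an antagonist of FGF signalling, with 14 (6.92), the chemokine gene Cxcl12 with 17 (6.24), Tgfb2 with 7 (5.28) and the Notch ligand gene Jag1 with 19 (2.57). The fullest adhesion deserts lay beside Cadm1 (7 shared regions, 6.71 per 100 kb), Ncam1 (7, 4.79) and Cdh4 (27, 4.64). So a dense desert could belong to a list whose median was low.

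The libraries ranked deserts alike, but not at the same level. Peaks per 100 kb in replicate 1 and replicate 2 had a Spearman rho of 0.87 across the 681 deserts, which is again a description over deserts of the same 2 libraries. Replicate 1 had more peaks in 568 deserts, replicate 2 in 69, and 44 were equal. Among the 10 densest, replicate 2 had more in 5 and replicate 1 in 4. Open promoters at the edges also went with the count. The 444 deserts with both flanking promoters open in both libraries had a median of 1.13, the 205 with 1 open had 0.734, and the 26 with none open had 0. The 6 deserts with a coding gene on 1 side only were left out.

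Desert peaks stood apart from the sequence around them. Their mean GC content was 46.8% in replicate 1 and 50.4% in replicate 2, against 38.7% for 150 bp tiles of desert sequence and 50.5% and 53.1% for other distal peaks. On average 10.1% and 12.5% of their bases were repeat-masked, against 39.6% of the tiles. Shared desert peaks had 8.39% and 8.51%, and the desert peaks called in replicate 2 alone had 19%. The peaks of replicate 2 alone were the most repeat-rich set, and 15% of them were masked over at least 50% of their length.

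Motif letters were counted on both strands of each 150 bp peak. Of the shared desert peaks, 2.41% (replicate 1) and 2.37% (replicate 2) held the CTCF consensus, against 5.44% and 5.34% of shared other distal peaks and 0.0105% of desert tiles. CTCF is the zinc finger protein that anchors chromatin loops. In both libraries the shared desert share was 0.44 times that of other distal peaks, but their shared peaks overlap and are not independent. Weighting the shared other distal peaks to the score deciles of the shared desert peaks gave 4.19% and 3.89%, so the lower share remained at equal score. Over all desert peaks the share was 1.38% ± 0.164 (SD, n = 2), and over other distal peaks 3.33% ± 0.404. Among the higher-scoring 50% of each list it was 3.44% of desert peaks. The share of other distal peaks with such scores is not given here, so that value has no comparison. In the top 10% of scores only 1 of 231 and 1 of 77 desert peaks held the consensus, against 5.77% and 6.59% of other distal peaks.

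GC boxes, GGGCGG, which Sp and Klf factors bind, were in 5.34% and 5.83% of shared desert peaks and 9.53% and 10.1% of shared other distal peaks. At equal score deciles the latter became 8.32% and 7.88%. The homeodomain core TAATTA went the other way, with 4.5% and 3.92% against 3.05% and 2.74% (3.07% and 2.97% at equal score), but 6.90% of desert tiles held it. The POU octamer did likewise, with 1.75% and 1.42% against 1.19% and 1.1%, and 1.69% of tiles. For these AT-rich motifs the desert peaks lay between other distal peaks and the tiles or near the tiles.

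E-boxes were common. CAGCTG, bound by proneural bHLH factors, was in 19.6% and 19.7% of shared desert peaks, 18% and 18.4% of shared other distal peaks and 4.07% of tiles. CAGATG was in 19.6% and 18.9%, against 17.3% and 17.2%, and 10.8% of tiles. The SOX motif ACAANGG was in 12.8% and 12.2%, against 11.5% and 11%, and 7.93% of tiles. The MEIS motif TGACAG was in 16.0% and 15.6%, against 13.5% and 13.4%, and 8.79% of tiles. These 4 motifs were thus somewhat more frequent in shared desert peaks than in shared other distal peaks, with ratios of 1.07 to 1.19. Shared peaks of the 2 libraries overlap each other, so the 2 values of a motif are not independent. Over all peaks, CAGCTG was in 15.7% and 17.9% of desert peaks, against 15.8% and 17.2% of other distal peaks. CAGATG, SOX and MEIS matches were more frequent in desert peaks in each library there too.

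The other motifs went in both directions. The shared desert share over that of shared other distal peaks was 1.22 and 1.21 for the NFI half-site TTGGCA, 1.22 and 1.23 for the nuclear receptor half-site AGGTCA, and 1.21 and 1.18 for AGATAA, the GATA motif. It was 0.988 and 1.03 for the RFX half-site GTTGCCA, 1.1 and 1.04 for the TEAD motif ACATTCC, and 1.09 and 1.06 for the AP-1 motif TGANTCA. At equal score deciles the TEAD shares were 2.89% against 2.82% in replicate 1 and 2.64% against 2.68% in replicate 2. Those of AP-1 were 4.91% against 4.80% and 4.69% against 4.76%. For the NFI, nuclear receptor, GATA and RFX motifs the desert share was then the higher in both libraries. The ETS motif CCGGAAGT was in 0.165% and 0.161% of shared desert peaks against 0.291% and 0.306%, and the GLI motif TGGGTGGTC in 0.165% and 0.177% against 0.259% and 0.255%. These desert shares rest on few peaks, 10 and 10 for ETS and 10 and 11 for GLI in replicates 1 and 2. The motif AGATAA was in 5.82% and 5.42% of shared desert peaks in replicates 1 and 2, but 11.8% of desert tiles held it. Its ratios above 1 thus hold against other distal peaks only, and not against desert sequence. A match is a run of letters and not a bound site.

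**Figure D5:**
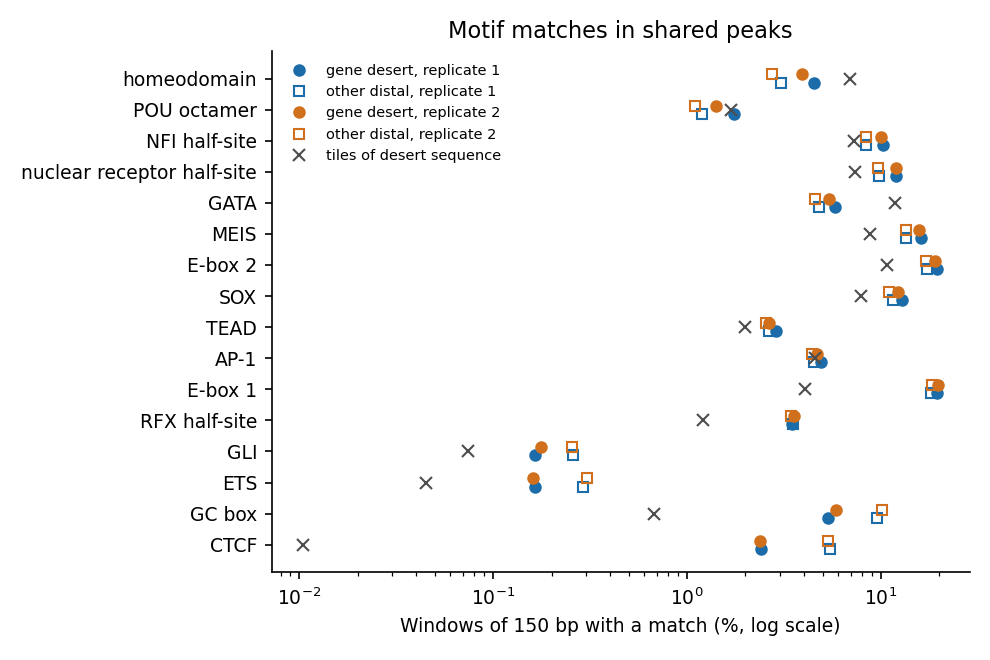
The percentage of 150 bp windows with at least 1 match on either strand (log scale) for 16 motifs, in shared gene desert peaks (filled circles), shared other distal peaks (open squares) and tiles of desert sequence (crosses); E-box 1 is CAGCTG and E-box 2 CAGATG. Shared desert peaks lie to the left of other distal peaks for CTCF (2.41% against 5.44% in replicate 1) and GC boxes, and to the right for the homeodomain and POU motifs.

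Some desert peaks marked the starts of noncoding transcripts. Within 500 bp of the centre of 411 desert peaks (2.47%) in replicate 1 and 355 (3.57%) in replicate 2 lay a start of a noncoding gene or pseudogene in GENCODE. For other distal peaks the share was 3.09% and 3.54%, so deserts were not richer in them. Among the top 10% of scores it was 10.8% and 16.9% for desert peaks and 11.1% and 14.3% for other distal peaks. With RefSeq starts added, 41 of 231 and 16 of 77 top-scoring desert peaks lay at an annotated start. Peaks at noncoding starts were shared in 58.2% and 69.6%, above the 36.4% and 62.4% of all desert peaks. Their scores were also higher, with median percentiles of 50.9 and 42.2 against 30.9 and 31.0, and the part of the score was not tested. RefSeq put a coding start near 16 desert peaks in each library.

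Long intergenic noncoding RNA (lincRNA) genes gave the highest number of open starts, and antisense or other processed transcripts the highest share, with 9 of 50 (18%) open in both libraries. Of 1042 lincRNA genes that start in deserts, 193 (18.5%) had a peak within 500 bp of a start in replicate 1, 156 (15%) in replicate 2 and 138 (13.2%) in both. Of 1973 pseudogenes 20 (1.01%) were open in both libraries, of 1073 small RNA genes 33 (3.08%), and of 250 genes of the class TEC, transcripts still to be experimentally checked, 15 (6%). The highest-scoring was Gm26901, between Pcmtd1 and Sntg1, at the percentiles of 99.6 and 98.6 in replicates 1 and 2. It was followed by Gm32123, between Rps24 and Zmiz1 (97.8 and 95), and A230028O05Rik, between Lpp and Tprg (95.7 and 95.4). The list also held 2610035D17Rik (96.5 and 93.9), in the desert beside Sox9, and Rmst (92.5 and 88.9), a neural long noncoding RNA between Tmpo and Nedd1. The desert beside Zmiz1 and that from Npvf to Nfe2l3 each held 2 of the 10 best-ranked peaks. Of those beside Zmiz1, 1 lay at the start of Gm32123.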

How the data were processed

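DNase-seq libraries of 2 neural tube replicates were used as deposited. Each peak list gives 150 bp peaks on mm10 with a whole-number score in column 7, made by the authors before deposit. Each hotspot list gives a −log10 q value per region, also made by the authors, from 1.3 up to a ceiling of 100. The sources used here do not name the aligner, the peak caller, its thresholds or what the score measures. Repeated positions were removed (45 and 22 rows), and scores were turned into percentiles of rank within each list.

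Desert territory came from 20807 autosomal protein-coding genes and 90262 start sites of all their transcripts in GENCODE M21. Bases, repeat masking (lower case) and sequences were read from the GRCm38 reference genome, and RefSeq starts from its annotation. Peaks were called per library, and overlaps needed 1 bp. Deserts were named by the nearest coding gene on each side. Named deserts were the 10 with most and the 10 with fewest shared regions per 100 kb (the longer first in a tie), the 5 longest, and up to 4 per gene list. Lists held 178 neural regulators, 97 other regulators, 77 signalling, 121 adhesion and synapse, and 1924 sensory and defence genes found in the annotation. Sequences were those of the 6 best-ranked shared peaks, of which 1 is not reported here, as is 1 of the named deserts. The members and lists were chosen with earlier results of these data known. Counting functions were tested on simulated data. Python 3.11.15, numpy 2.4.6, pandas 2.3.3, scipy 1.17.1 and matplotlib were used. Alternatives covered the distance, the start sites, gene bodies, score limits, overlap, desert length and each library by itself.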

Additional observations from a re-analysis of the deposited data

Results flagged for a closer look

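Chromosome X was outside the rule, which covers chromosomes 1 to 19, but its deserts by the same distances also held peaks. There were 294 in replicate 1 and 186 in replicate 2, of 4863 and 3601 peaks on that chromosome, in 35.6 Mb of desert (21.8% of its known sequence). The density was 0.826 and 0.522 peaks per 100 kb, and the median score percentile was 13.4 and 13.6. The other library shared 30.6% and 49.5% of them. These counts were set against no control library, and male and female embryos were pooled.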

How the results depend on the processing

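Values are means over the 2 libraries, set against their SD, or desert medians set against their 95% interval. That interval comes from the spread over deserts, counted as independent though they share libraries. It holds no variation between libraries. With a distance of 100 kb the desert share of peaks was 13.6%, the density ratio 0.368, the median score percentile 33.4, the CTCF share 1.6% and the median of shared regions per 100 kb 1.35. With 500 kb these were 1.83%, 0.180, 24.7, 1.75% and 0.385, and the median beside regulators was 1.76. Leaving out noncoding gene bodies too gave a percentile of 28.4, a share at noncoding starts of 1.61%, and medians of 0.478 over all deserts and 2.0 beside regulators. The higher-scoring 50% of each list gave a desert share of 4.29%, a ratio of 0.167, a percentile of 31.6, a CTCF share of 3.44%, a noncoding share of 4.9%, and medians of 0.225 and 0.892. The difference in sharing at equal score turned to -2.69 points there.

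Equal numbers of peaks gave a percentile of 32.8, a CTCF share of 1.66% and a median of 0.742. An overlap of 75 bp gave a median of 0.800, deserts of at least 300 kb 0.741, and a density ratio against territory over 1 kb from a TSS 0.38. Taking each library by itself gave the -0.666 and 6.12 points for the difference in sharing that are reported above. The other library still defined which peaks were shared, so these are not results with a library left out. With all peaks of 1 library, the medians were 1.81 to 3.31 over all deserts and 4.2 to 6.47 beside regulators, since unshared peaks are then counted. The cause of the other shifts was not tested. The share of desert peaks that were shared ranged from 36.4%, the value of replicate 1 by itself, to 67.7% over 12 alternatives. Regulator deserts had the higher median under each alternative run for both medians. Each alternative used the same lists, chosen with earlier results of these data known, so this is not independent support. Counting only the starts of protein-coding transcripts, an alternative chosen after seeing the data, moved none of the 9 results beyond its spread. No paired analysis was possible because there is 1 group. The score is coarse, and its link to depth is unknown.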

Other observations

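Several desert peaks at pseudogenes scored high in both libraries on a stretch of chromosome 12. The start of Gm49330, between Hpcal1 and 5730507C01Rik, stood at percentiles of 95 and 93.7 in replicates 1 and 2. Gm47385 (91.7 and 89.9) and Gm48042 (87.6 and 84.2) both lay between Ywhaq and Gm10330, and Gm48667 (86.4 and 83.8) between Gm21863 and Asap2. Over all deserts only 20 of 1973 pseudogenes had an open start in both libraries. Whether near-identical copies share reads there was not tested.

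The 94 ranked deserts without a shared region were not all without peaks. Of them, 79 had a peak in replicate 1 and 51 in replicate 2, with 428 and 141 peaks in 45.9 Mb. Their median masked share was 46.2%, against 38.3% over all ranked deserts.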
